A study of Mus musculus with 12 samples.

Results

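A set of 10 genes of the NRF2 antioxidant pathway was followed through the 4 groups of the study: Nfe2l2, Keap1, Gclc, Gclm, Gsr, Txnrd1, Srxn1, Nqo1, Hmox1 and G6pdx. They were chosen by name, with earlier results of these data known, so counts among them may not be independent of that choice. They were looked up by Ensembl identifier through mouse GRCm38 symbols. All 10 were found among 54146 gene identifiers, and all 10 were among the 14283 genes with enough counts to be tested.

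NRF2, the product of Nfe2l2, is a transcription factor that turns on genes against oxidants and reactive chemicals. In resting cells KEAP1 holds it and presents it to the ubiquitin ligase CUL3, so that it is destroyed as fast as it is made. When oxidants or electrophiles modify KEAP1, NRF2 accumulates, pairs with a small MAF protein and binds antioxidant response elements near genes for glutathione synthesis, the thioredoxin system, quinone detoxification, heme breakdown and NADPH supply. The regulation is largely by protein stability, which messenger RNA does not show, and in liver the pathway is known for protection against toxic chemicals and for its activation in liver tumours.

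RNA was sequenced from BMEL cells, a bipotential embryonic liver progenitor line that was isolated from a mouse with floxed Cdk8 alleles (Cdk8 F/F) and grown on collagen in medium with serum, insulin, IGFII and EGF. The 4 groups, of 3 libraries each, were Cdk8 -/- cells with H-RasG12V (Cdk8 knockout RasG12V), Cdk19 -/- cells with H-RasG12V (Cdk19 knockout RasG12V), wild-type cells with H-RasG12V (RasG12V) and wild-type cells without it (untransformed), all in exponential growth and all of the same floxed origin. Untransformed knockout cells were not analysed here. H-RasG12V is a constitutively active Ras, and Cdk8 and Cdk19 are the paralogous kinases of the Mediator complex. The labels do not say whether a group is 1 clone or whether its libraries came from separate cultures, so p-values measure the spread between these libraries, which may be technical.

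Sequences are shown to place the letters of an antioxidant response element near a gene that fell (Gclm), a gene that rose (Txnrd1) and a gene that missed the threshold (Srxn1) in RasG12V against untransformed cells. The core searched was TGACNNNGC on both strands, in RefSeq windows of GRCm38.p6 that run from 250 bases before to 50 bases after an annotated start. Of the 10 genes, 7 were in that table, with 9 windows. The 3 windows that follow are given 5′ to 3′ on the plus strand, which is the strand of each gene, with the bases of the core in capitals: Gclm (chr3:122245307-122245606), Txnrd1 (chr10:82858956-82859255) and Srxn1 (chr2:152105274-152105573).
Gclm: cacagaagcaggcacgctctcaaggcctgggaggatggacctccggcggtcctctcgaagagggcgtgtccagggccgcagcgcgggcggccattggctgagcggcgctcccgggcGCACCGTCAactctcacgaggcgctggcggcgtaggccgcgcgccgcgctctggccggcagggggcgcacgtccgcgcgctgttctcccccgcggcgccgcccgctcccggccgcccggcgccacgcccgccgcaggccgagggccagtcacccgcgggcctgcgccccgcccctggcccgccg
Txnrd1: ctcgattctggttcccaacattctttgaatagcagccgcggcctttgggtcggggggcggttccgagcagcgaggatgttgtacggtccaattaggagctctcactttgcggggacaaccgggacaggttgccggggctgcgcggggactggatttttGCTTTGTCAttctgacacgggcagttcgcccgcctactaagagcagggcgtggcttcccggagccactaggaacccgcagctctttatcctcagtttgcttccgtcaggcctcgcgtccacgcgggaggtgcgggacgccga
Srxn1: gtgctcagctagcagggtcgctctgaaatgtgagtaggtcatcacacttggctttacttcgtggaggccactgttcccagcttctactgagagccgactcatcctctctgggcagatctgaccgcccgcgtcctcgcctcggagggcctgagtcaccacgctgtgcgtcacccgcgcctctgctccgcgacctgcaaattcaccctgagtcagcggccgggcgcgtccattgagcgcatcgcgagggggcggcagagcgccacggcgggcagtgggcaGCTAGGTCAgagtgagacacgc
In all of these the core lies on the opposite strand, so the capitals are its reverse complement. Counting from 1 at the annotated start, the match was TGACGGTGC at -134 to -126 in Gclm, TGACAAAGC at -92 to -84 in Txnrd1 and TGACCTAGC at 29 to 37 in Srxn1. The Srxn1 window also held the AP-1 letters TGAGTCA at -102 to -96 and at -45 to -39, on its own strand and in lower case here; the AP-1 search was for TGANTCA on both strands. Nfe2l2 held the core as TGACTCCGC at -240 to -232, and G6pdx as TGACTGAGC at -57 to -49 on the opposite strand. The letters of the core were not in the windows of Keap1 and Nqo1 or in the other 2 Txnrd1 windows. Among all 32817 windows 12.38% held the core, 7.813% held the AP-1 letters and 0.454% held both with overlap. In the windows of these genes no match to the core as searched overlapped one to AP-1. Looser forms of the core were not searched. The AP-1 match at -45 to -39 in Srxn1 is followed by gc, so it lies within the letters tgagtcagc. These are the core with G in place of its C. Hmox1, Gclc and Gsr are named only.

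Libraries held 24823560 to 36879661 gene counts. Levels are CPM, read counts brought to a common library total with TMM factors, and the limit taken for a gene without reads, 3 counts, lies at 0.0813 to 0.121 CPM and covers counting error only. A pair of libraries stood apart from their groups: RasG12V replicate 3 differed from the other RasG12V libraries by a median of 0.318 on the log2 scale, and untransformed replicate 3 from its group by 0.230, against 0.101 to 0.187 in the other 10. Results are therefore given with all 12 libraries and, where they change, without this pair, which leaves 2 libraries in each of those groups. The pair was picked from these same values, so leaving it out makes the spread within groups smaller by construction. Adjusted p-values of that fit may therefore be too small and are given as a description. Whole-gene counts of Cdk8 were 42.8 ± 1.30 CPM in Cdk8 knockout cells and 54.5 ± 3.13 CPM in RasG12V, and those of Cdk19 were 49.8 ± 4.22 CPM in the Cdk19 knockout and 75.2 ± 16 CPM in RasG12V (SD, n = 3 each); such counts do not show whether part of a gene is missing, and the groups are called as labelled. Of 9 cholangiocyte and progenitor markers, 8 averaged above 1 CPM in every group, while Epcam was at 0.0946 CPM or less in each group mean. Of 8 hepatocyte markers 1, Hnf4a, did so in each transformed group and 4 did so in untransformed cells. The hepatocyte list summed to 284 to 506 CPM in RasG12V and 407 to 508 CPM in untransformed libraries, nearly all of it Hnf4a, with Alb at 0.0201 CPM in RasG12V and 3.05 CPM in untransformed cells. Macrophage markers, relevant to Hmox1 in liver, summed to 33.6 to 60.5 CPM in RasG12V and 36.1 to 46.0 CPM in untransformed libraries, nearly all of it from Cd14, with Adgre1 and Clec4f at 0 counts throughout, and the 4 hemoglobin genes were at 0 counts in all libraries. The part of these markers in the results was not tested.

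Levels of the 10 genes spanned a wide range, with Nqo1 far below the rest. Levels were set per kilobase of summed exon length, so that genes can be compared roughly. That length takes in the exons of all annotated transcripts of a gene, whether expressed here or not. On this scale Gclc stood highest among the 10 in untransformed cells with 196 ± 44.6 CPM per kilobase, followed by Gsr with 128 ± 2.52, Nfe2l2 with 82.6 ± 1.09 and Txnrd1 with 73.4 ± 4.56 (SD, n = 3). In RasG12V cells the order was different: Txnrd1 led with 96.6 ± 8.94 CPM per kilobase, and Gclc, at 78.1 ± 28.8, no longer differed from Gsr at 73.9 ± 2.73, G6pdx at 72.5 ± 13.7 and Nfe2l2 at 66.5 ± 11.5 beyond the spread between libraries. Keap1, at 10.4 ± 0.762 in RasG12V and 12.8 ± 0.183 CPM per kilobase in untransformed cells, stood well below Nfe2l2 in either group. Nqo1, the quinone reductase often used to read out NRF2 activity, was at 0.430 ± 0.317 in RasG12V and 0.441 ± 0.199 CPM per kilobase in untransformed cells, the lowest of the 10.

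**Figure D1:**
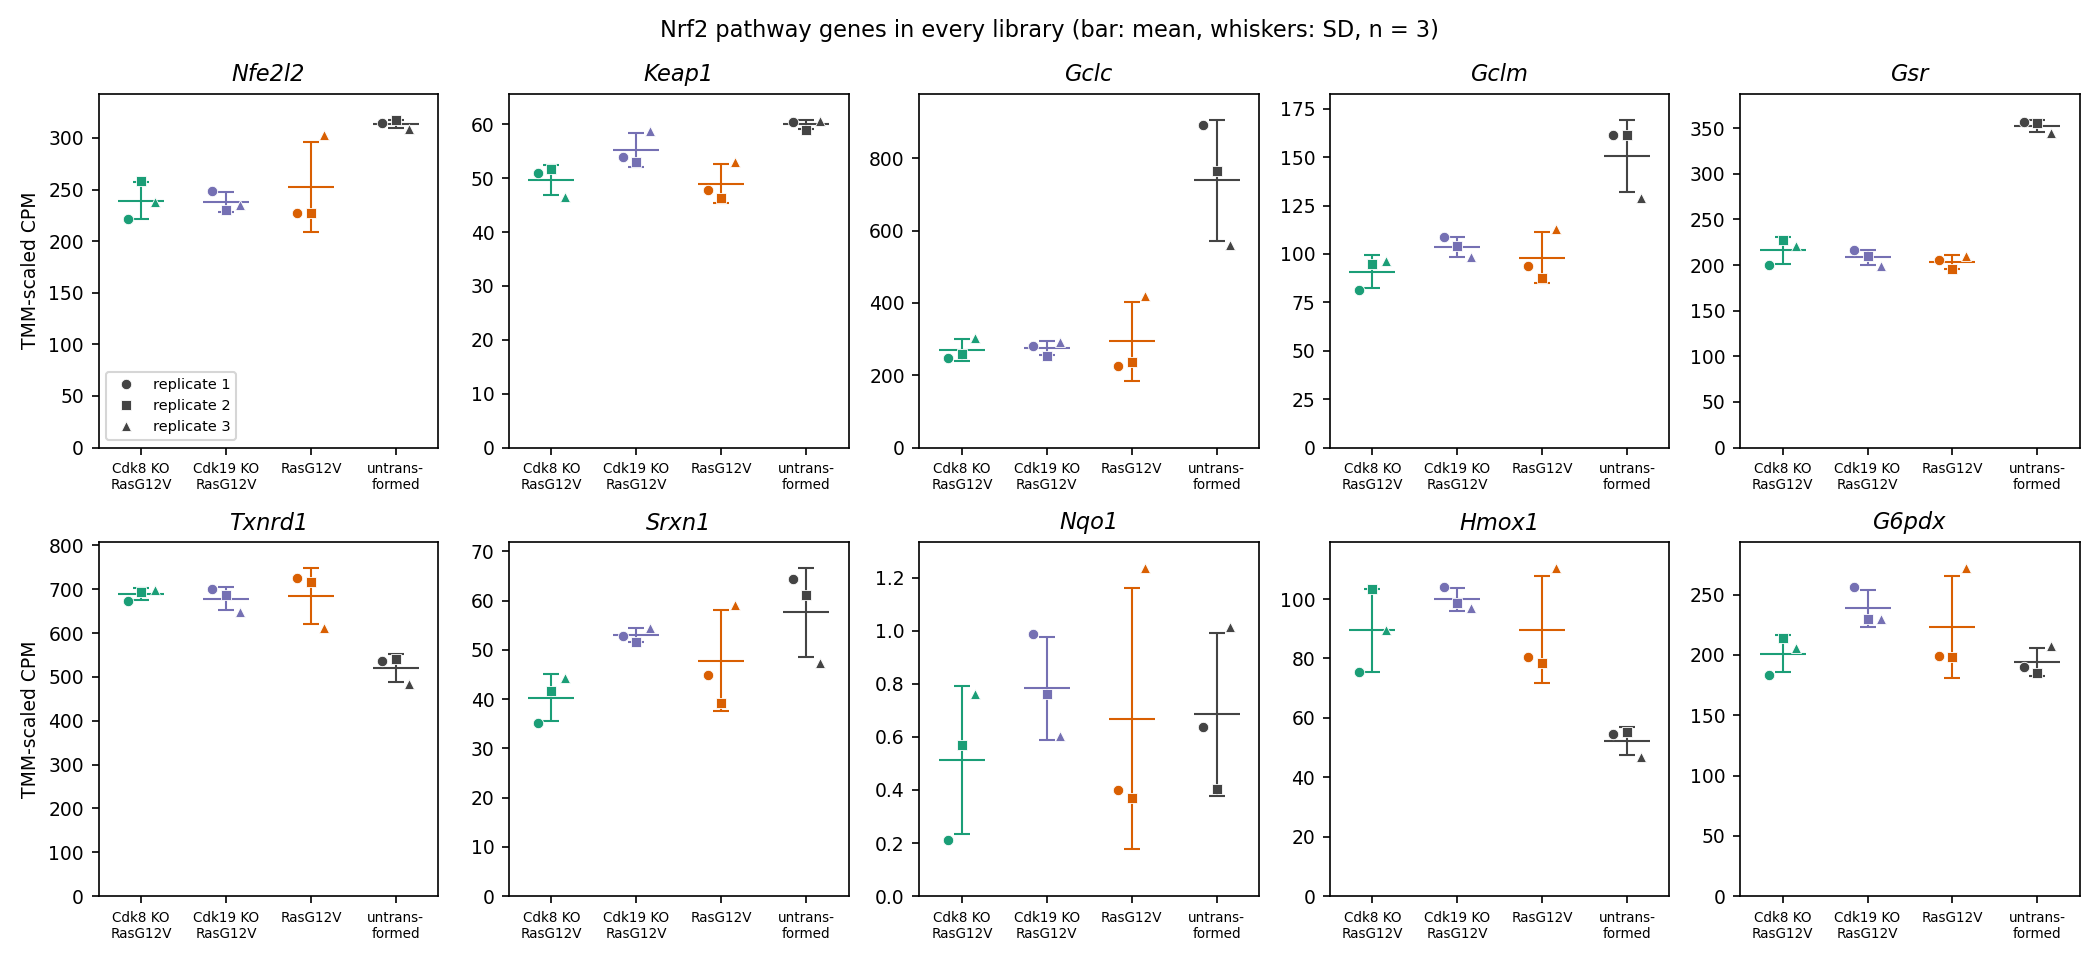
TMM-scaled CPM of the 10 genes in each of the 12 libraries, on axes that start at 0, with 1 panel per gene, symbols for replicates 1 to 3, a line for the mean and whiskers for the SD (n = 3). Gclc, Gclm and Gsr lie lower, and Hmox1 and Txnrd1 higher, in all 3 transformed groups than in untransformed cells, while Nqo1 stays at or below 1.24 CPM everywhere.

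In RasG12V cells the pathway did not move as a block. Against untransformed cells, the 3 glutathione genes Gclc, Gclm and Gsr and the inhibitor Keap1 fell, Hmox1 and Txnrd1 rose, and Nfe2l2, Srxn1, Nqo1 and G6pdx did not pass the test. That is 2 genes that rose and 4 that fell of 10, beside 23.4% of all 14283 genes called in this comparison (11.9% rose and 11.5% fell; edgeR quasi-likelihood test, Benjamini-Hochberg adjusted p under 0.05). The median log2 fold change of the 10 was -0.28, against -4.0e-04 over all genes tested. For 7 of the 10 the values of RasG12V and untransformed libraries did not overlap, with 2 higher and 5 lower in RasG12V, beside 32.3% of all genes.

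Among the regulators, Nfe2l2 (ENSMUSG00000015839, chromosome 2, 75675513 to 75704641, minus strand, GRCm38) had 227, 228 and 303 CPM in RasG12V, against 315, 317 and 309 CPM in untransformed libraries. All 3 RasG12V libraries were lower, but replicate 3 was close to the untransformed level. The log2 fold change was -0.31 (SE 0.11, 95% interval -0.54 to -0.08) and missed the threshold (edgeR adjusted p = 0.0506). In 13 of 18 alternatives it also missed the threshold, with edgeR adjusted p up to 0.197. It passed in DESeq2 (adjusted p = 0.0326), with no filter on low counts (0.0259), with a replicate block (0.0474) and without RasG12V replicate 3 (3.6e-04). Without the pair of libraries that stood apart Nfe2l2 fell by 0.49 (SE 0.07, adjusted p = 2.0e-05). Keap1 (ENSMUSG00000003308, chromosome 9, 21229730 to 21239361, minus strand), the adaptor that marks NRF2 for destruction, had 47.7, 46.3 and 53.1 CPM in RasG12V, against 60.4, 59.0 and 60.6 CPM in untransformed libraries. The groups did not overlap, and Keap1 had a log2 fold change of -0.29 (SE 0.08) and so fell past the threshold (adjusted p = 0.0179). The call was lost without RasG12V replicate 1 (adjusted p = 0.0723) or 2 (0.0910), without untransformed replicate 1 (0.0533) and with no filter on low counts (0.0866), while without the pair of libraries Keap1 fell by 0.36 (adjusted p = 0.00111). Keap1 lies opposite the antisense transcript Gm16754, which held 566 counts over all libraries, and the counts used here were those of the gene's own strand.

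Among the glutathione genes Gclc had the largest fold change of the 10. Gclc (ENSMUSG00000032350, chromosome 9, 77754535 to 77794485, plus strand) encodes the catalytic subunit of glutamate-cysteine ligase, the rate-limiting enzyme of glutathione synthesis. It had 225, 238 and 419 CPM in RasG12V, against 893, 764 and 560.3 CPM in untransformed libraries. The groups did not overlap, and the nearest values of each came from the libraries that stood apart. Gclc was 2.51-fold lower in RasG12V (log2 fold change -1.33, SE 0.22, adjusted p = 9.5e-04), and 3.62-fold lower without that pair (log2 fold change -1.85, SE 0.10, adjusted p = 2.0e-10). Gclm (ENSMUSG00000028124, chromosome 3, 122245557 to 122270732, plus strand), the modifier subunit of the same enzyme, had 93.8, 87.7 and 113 CPM in RasG12V, against 162, 161 and 129 CPM in untransformed libraries. It was 1.53-fold lower without overlap (log2 fold change -0.62, SE 0.11, adjusted p = 0.00193). The catalytic subunit therefore stood lower relative to its partner: per kilobase, the ratio of Gclc to Gclm was 4.0, 4.53 and 6.21 in RasG12V, against 9.24, 7.91 and 7.26 in untransformed libraries, with no overlap. Gsr (ENSMUSG00000031584, chromosome 8, 33652523 to 33698163, plus strand), the reductase that regenerates glutathione with NADPH, had 205, 195 and 210.2 CPM in RasG12V, against 357, 356 and 344 CPM in untransformed libraries. Libraries of a group lay close together, and Gsr was 1.73-fold lower (log2 fold change -0.79, SE 0.07, adjusted p = 7.5e-06).

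Of the thioredoxin genes 1 rose and 1 did not pass. Txnrd1 (ENSMUSG00000020250, chromosome 10, 82833951 to 82897712, plus strand), the cytosolic thioredoxin reductase, had 725, 718 and 612 CPM in RasG12V, against 536, 541 and 483 CPM in untransformed libraries. Every RasG12V library lay above every untransformed library, and Txnrd1 was 1.32-fold higher (log2 fold change 0.40, SE 0.08, adjusted p = 0.00391). Srxn1 (ENSMUSG00000032802, chromosome 2, 152105516 to 152111376, plus strand), sulfiredoxin, which repairs overoxidised peroxiredoxins, had 44.9, 39.2 and 59.1 CPM in RasG12V, against 64.3, 61.1 and 47.4 CPM in untransformed libraries. Here the libraries that stood apart crossed over, and the log2 fold change of -0.27 (SE 0.15, 95% interval -0.60 to 0.06) missed the threshold (adjusted p = 0.235). Without RasG12V replicate 3 Srxn1 fell by 0.44 (adjusted p = 0.0168), and without the pair by 0.59 (SE 0.10, adjusted p = 6.8e-05).

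Hmox1 (ENSMUSG00000005413, chromosome 8, 75093621 to 75100589, plus strand) encodes heme oxygenase 1, which opens the heme ring and is also held down by the repressor BACH1. It had 80.4, 78.4 and 110.4 CPM in RasG12V, against 54.4, 55.4 and 46.7 CPM in untransformed libraries. All RasG12V libraries were higher, replicate 3 most of all, and Hmox1 was 1.72-fold higher (log2 fold change 0.78, SE 0.14, adjusted p = 0.00155). Without the pair of libraries the log2 fold change was 0.52 (SE 0.10, adjusted p = 7.9e-04). G6pdx (ENSMUSG00000031400, chromosome X, 74409483 to 74429194, minus strand), glucose-6-phosphate dehydrogenase, which makes NADPH in the pentose phosphate pathway, had 199, 198 and 272 CPM in RasG12V, against 190.0, 185 and 208 CPM in untransformed libraries. The groups overlapped, and the log2 fold change of 0.20 (SE 0.12, 95% interval -0.05 to 0.46) did not pass (adjusted p = 0.254). G6pdx shares its locus with Ikbkg on the other strand, and its closely related copy G6pd2 held 76 counts over all libraries.

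Nqo1 (ENSMUSG00000003849, chromosome 8, 107388225 to 107403206, minus strand) gave few reads, and its changes were not resolved. It had 0.401, 0.368 and 1.24 CPM in RasG12V, against 0.639, 0.402 and 1.01 CPM in untransformed libraries, which is 9 to 41 and 13 to 34 counts per library. Replicate 3 was the highest in each of these groups. The log2 fold change of 0.0037 had a 95% interval of -1.10 to 1.11 (adjusted p = 0.998), so these libraries leave room for a change within those bounds. Without RasG12V replicate 3 the value was -0.82 (adjusted p = 0.258), and without the pair -0.43 (adjusted p = 0.558).

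**Figure D2:**
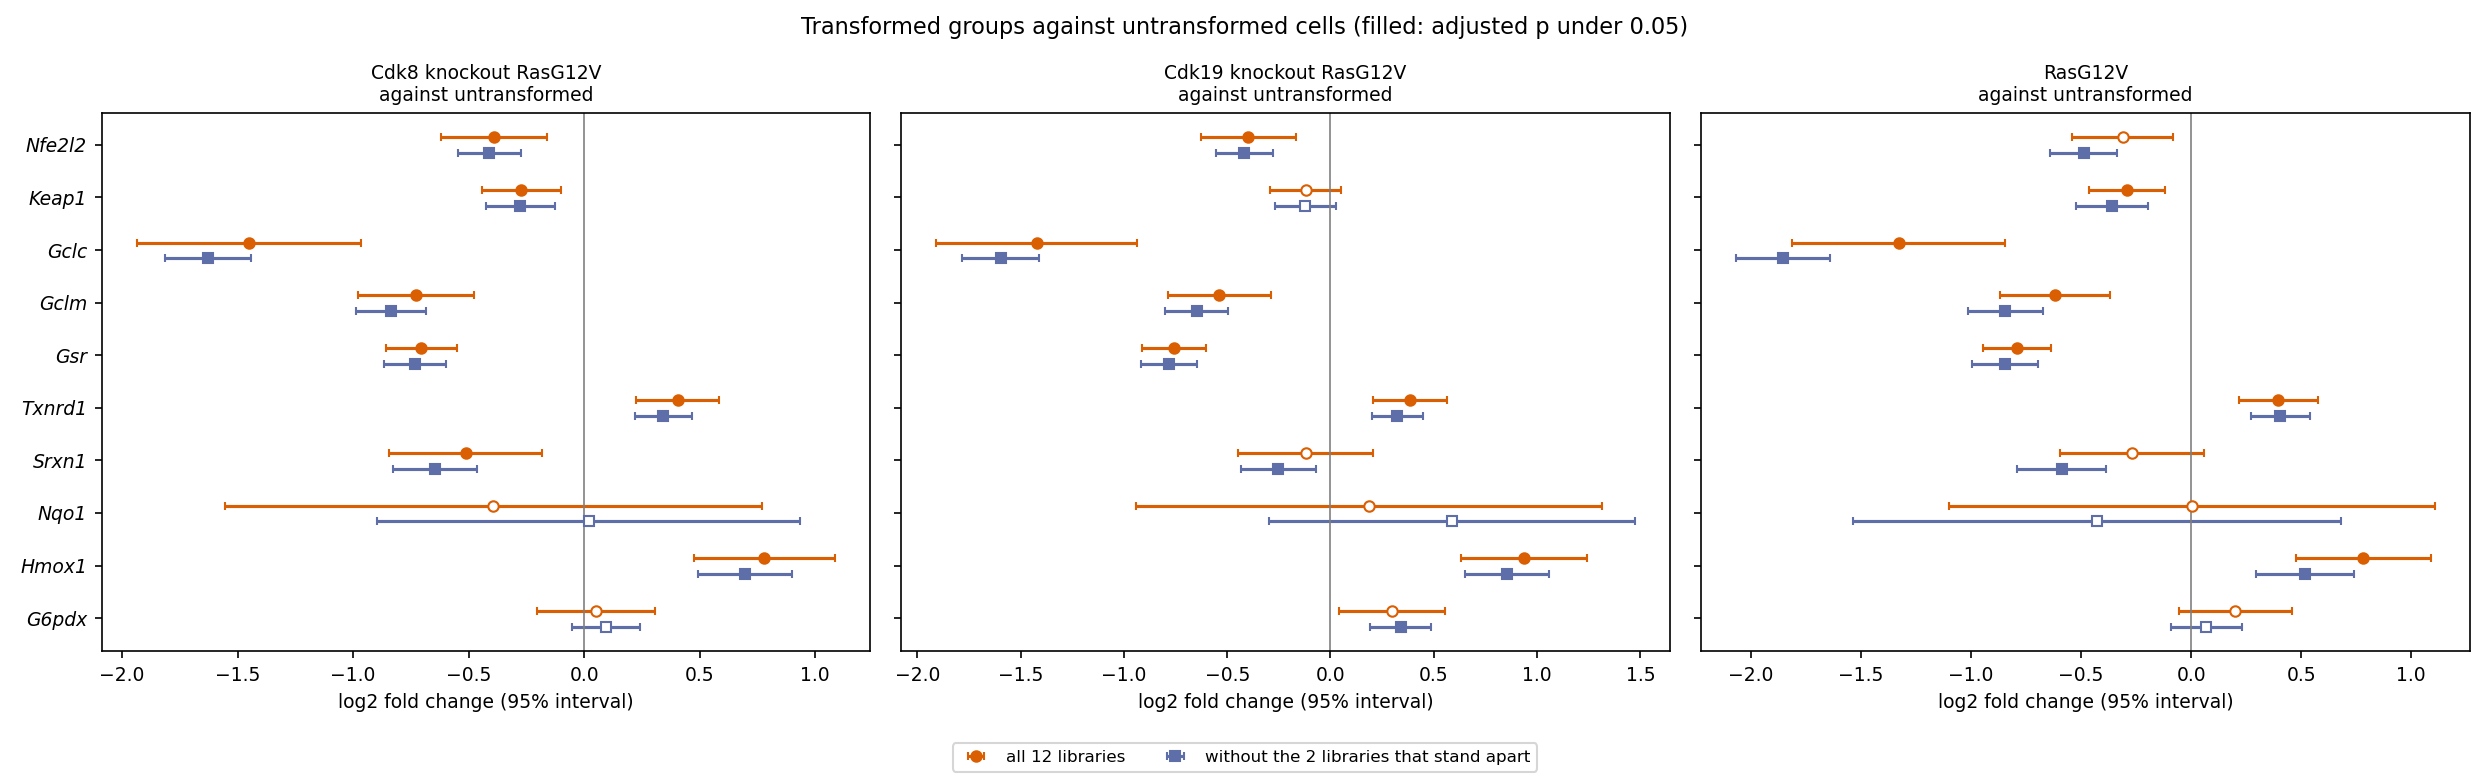
Log2 fold changes of the 10 genes in the 3 transformed groups against untransformed cells, with approximate 95% intervals; circles use all 12 libraries and squares leave out RasG12V replicate 3 and untransformed replicate 3, and filled symbols have an adjusted p under 0.05. Gclc, Gclm and Gsr lie left of 0 and Txnrd1 and Hmox1 right of 0 in every panel, with Gclc furthest at -1.33 to -1.45 with all libraries.

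The knockout lines, also transformed, also had Gclc, Gclm and Gsr lower and Hmox1 and Txnrd1 higher than untransformed cells. These comparisons share the untransformed libraries with that of RasG12V, so they are not independent of it. In the Cdk8 knockout 2 genes rose and 6 fell of 10, beside 24.4% of all genes (12.3% rose and 12.2% fell). In the Cdk19 knockout 2 rose and 4 fell, beside 25.3% (12.4% rose and 12.9% fell). Libraries did not overlap for 8 of the 10 in the Cdk8 knockout, beside 42.6% of all genes, and for 8 of the 10 in the Cdk19 knockout, beside 43.8%. Gclc had 248, 258 and 304 CPM in Cdk8 knockout libraries and 281, 253 and 293 CPM in Cdk19 knockout libraries. These lie closer together than the RasG12V libraries, and Gclc fell by 1.45 in the Cdk8 line (SE 0.22, adjusted p = 5.2e-04) and 1.42 in the Cdk19 line (SE 0.22, adjusted p = 5.5e-04) on the log2 scale. The ratio of Gclc to Gclm per kilobase was 4.97 ± 0.377 in the Cdk8 knockout, 4.45 ± 0.471 in the Cdk19 knockout, 4.92 ± 1.15 in RasG12V and 8.14 ± 1.01 in untransformed cells (SD, n = 3 each).

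Gsr had 199.8, 227 and 221 CPM in Cdk8 knockout libraries and 216, 209.9 and 199.1 CPM in Cdk19 knockout libraries, and it fell by 0.70 in the Cdk8 line (adjusted p = 2.0e-05) and 0.76 in the Cdk19 line (adjusted p = 1.1e-05). Gclm had 81.3, 95 and 96.4 CPM in Cdk8 knockout libraries and 109, 104 and 98.4 CPM in Cdk19 knockout libraries, and it fell by 0.73 in the Cdk8 line (adjusted p = 6.1e-04) and 0.54 in the Cdk19 line (adjusted p = 0.00415). Both genes stayed below every untransformed library in either knockout. Hmox1 had 75.5, 104 and 89.5 CPM in Cdk8 knockout libraries and 104, 98.5 and 96.9 CPM in Cdk19 knockout libraries, and it rose by 0.78 in the Cdk8 line (adjusted p = 0.00149) and 0.94 in the Cdk19 line (adjusted p = 4.1e-04). Txnrd1 had 673, 694 and 698 CPM in Cdk8 knockout libraries and 699.8, 686 and 649 CPM in Cdk19 knockout libraries, and it rose by 0.40 in the Cdk8 line (adjusted p = 0.00330) and 0.38 in the Cdk19 line (adjusted p = 0.00434). The 2 genes that rose were thus above every untransformed library in all 3 transformed groups.

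Nfe2l2, with 222, 258 and 238 CPM in Cdk8 knockout libraries and 248, 230.2 and 235 CPM in Cdk19 knockout libraries, fell by 0.39 in the Cdk8 line (adjusted p = 0.0172) and 0.40 in the Cdk19 line (adjusted p = 0.0149). All 6 values lay below the 3 untransformed ones, but the call was lost in the Cdk8 knockout without its replicate 1 (adjusted p = 0.0946) or 3 (0.0539) or untransformed replicate 2 (0.0522), and in the Cdk19 knockout without its replicate 2 (0.0692). Keap1 had 50.9, 51.7 and 46.4 CPM in the Cdk8 knockout, where it fell by 0.27 (adjusted p = 0.0233), and 53.9, 53.0 and 58.8 CPM in the Cdk19 knockout, where the log2 fold change was -0.12 (adjusted p = 0.298). Srxn1 had 35.1, 41.6 and 44.3 CPM in the Cdk8 knockout, where it fell by 0.51 (adjusted p = 0.0264), and 52.9, 51.6 and 54.4 CPM in the Cdk19 knockout, where the log2 fold change was -0.12 (adjusted p = 0.615). These Cdk8 knockout calls depended on single libraries: Keap1 was lost without untransformed replicate 1 (adjusted p = 0.0633) or 2 (0.0529) or without Cdk8 knockout replicate 1 (0.0705), 2 (0.0534) or 3 (0.0919), and with no filter on low counts (0.115). Srxn1 was lost without untransformed replicate 1 (0.104) or 2 (0.0869) or Cdk8 knockout replicate 1 (0.127) or 2 (0.0726). Without the pair of libraries that stood apart, Srxn1 passed in either knockout, at -0.64 (adjusted p = 5.8e-06) in the Cdk8 knockout and -0.25 (adjusted p = 0.0238) in the Cdk19 knockout, beside 42.2% of all genes called in the Cdk8 line and 43.6% in the Cdk19 line.

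G6pdx, with 256, 229.8 and 230.1 CPM in the Cdk19 knockout, lay above every untransformed library but missed the threshold (log2 fold change 0.30, SE 0.12, adjusted p = 0.0845). It passed there with no filter on low counts (0.0218), without RasG12V replicate 3 (0.00489) and without the pair of libraries (0.34, SE 0.07, adjusted p = 6.0e-04). In the Cdk8 knockout it had 184, 214 and 206 CPM, a log2 fold change of 0.05 (adjusted p = 0.804). Nqo1 was low here too, with 0.212, 0.570 and 0.761 CPM in Cdk8 knockout libraries and 0.988, 0.760 and 0.602 CPM in Cdk19 knockout libraries.

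Within transformed cells, none of the 10 genes differed past the threshold between either knockout and RasG12V; both comparisons share the RasG12V libraries. In the Cdk8 knockout against RasG12V, 0 of 10 were called, beside 0% of all genes (0 of 14283); at an unadjusted p under 0.05 the counts were 0 of 10 and 871 of 14283 (6.1%), and DESeq2 called 30 genes and none of the 10. In the Cdk19 knockout against RasG12V, 0 of 10 were called beside 0.014% of all genes (2 genes; 1089 or 7.62% at an unadjusted p under 0.05, of which 0 were among the 10; 66 by DESeq2). Libraries overlapped for all 10 genes in either comparison, beside 12.5% of all genes without overlap for the Cdk8 knockout and 14.5% for the Cdk19 knockout. The intervals show what size of change these data leave room for. For Gsr the 95% interval was -0.07 to 0.24 for the Cdk8 knockout and -0.12 to 0.19 for the Cdk19 knockout, for Txnrd1 -0.17 to 0.19 (Cdk8) and -0.19 to 0.17 (Cdk19), and for Nfe2l2 -0.31 to 0.15 (Cdk8) and -0.32 to 0.14 (Cdk19). Gclc was less well resolved, at -0.60 to 0.35 for the Cdk8 knockout and -0.57 to 0.38 for the Cdk19 knockout, with 225, 238 and 419 CPM within RasG12V.

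Leaving out the pair of libraries tightened these intervals and moved some estimates. In the Cdk8 knockout against RasG12V the log2 fold change of Gclc was then 0.23 (SE 0.09, adjusted p = 0.182), against -0.12 with all libraries, and none of the 10 was called beside 1.59% of all genes. In the Cdk19 knockout against RasG12V, G6pdx (0.27, SE 0.07, adjusted p = 0.0530), Srxn1 (0.34, SE 0.09, adjusted p = 0.0568) and Hmox1 (0.34, SE 0.09, adjusted p = 0.0797) came near the threshold without passing it, beside 2.01% of all genes called. With all libraries, which include those of this fit, the values were 0.10 for G6pdx (adjusted p = 0.877), 0.15 for Srxn1 (0.859) and 0.15 for Hmox1 (0.839).

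**Figure D3:**
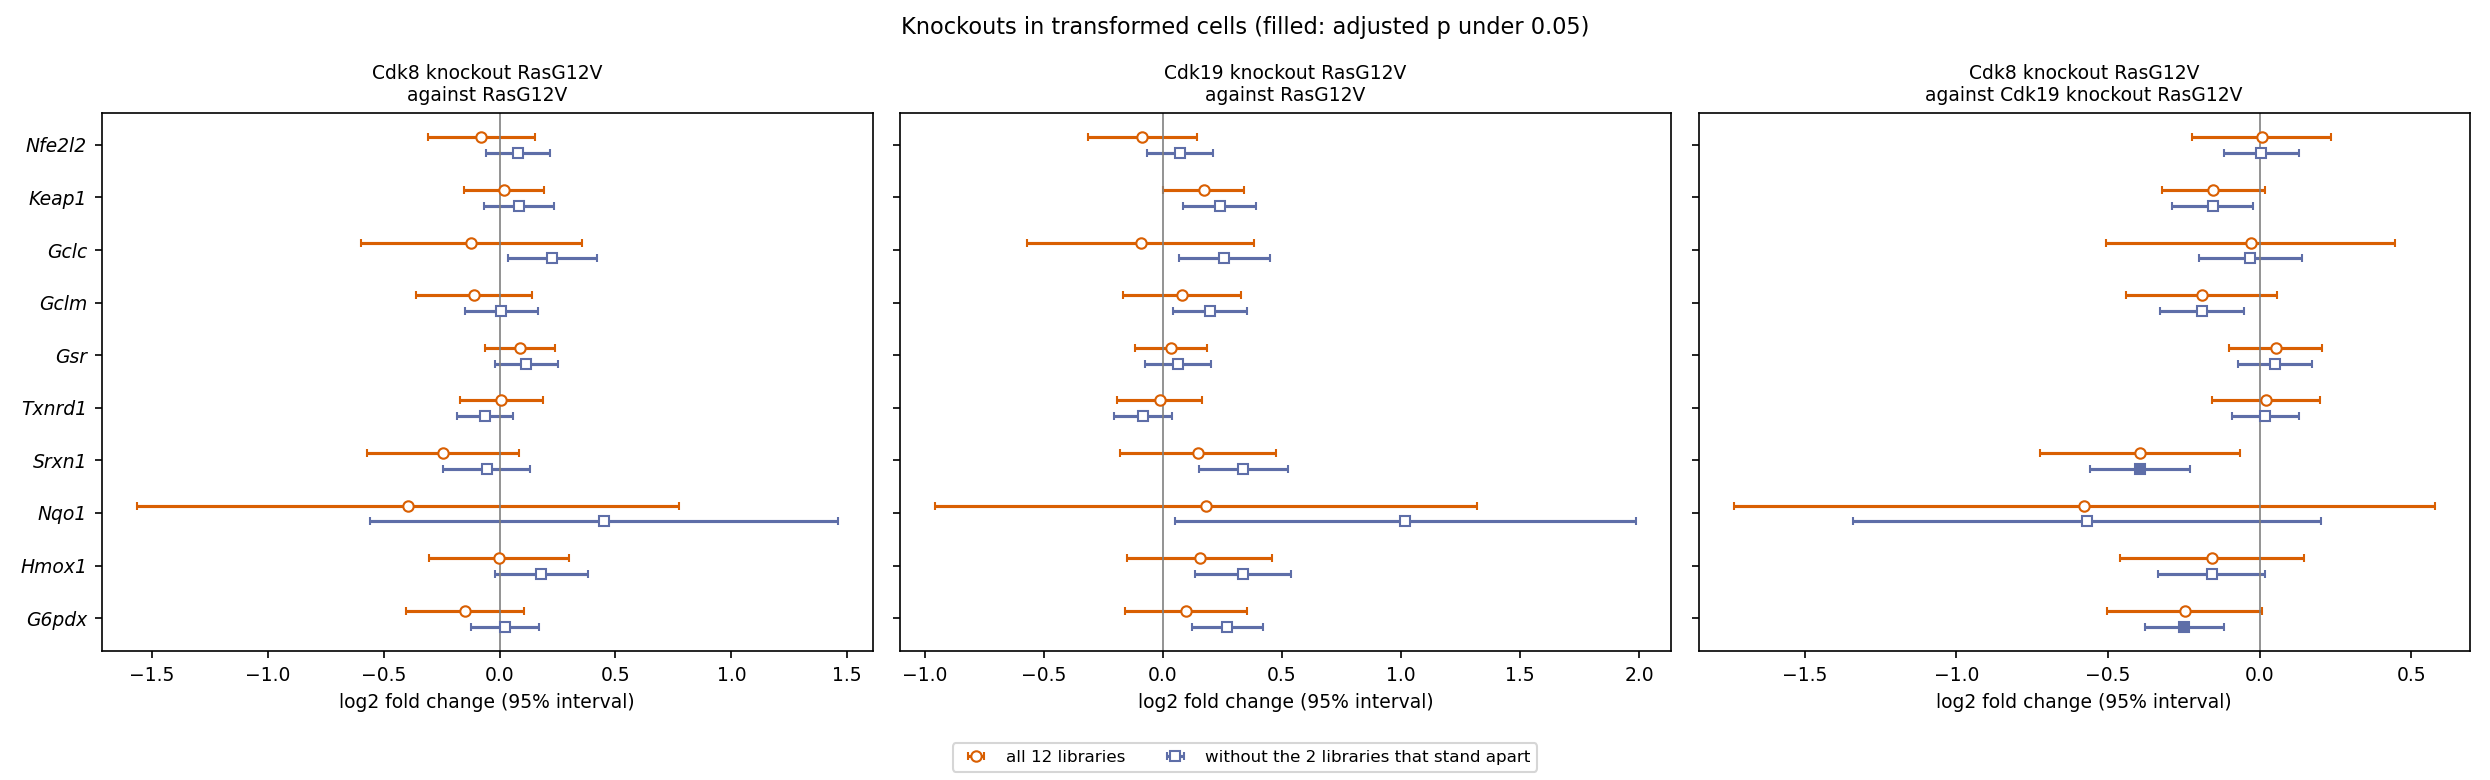
Log2 fold changes of the 10 genes between knockouts and RasG12V and between the knockouts, with approximate 95% intervals; circles use all 12 libraries, squares leave out RasG12V replicate 3 and untransformed replicate 3, and filled symbols have an adjusted p under 0.05. With all libraries no symbol is filled, and without the pair Srxn1 at -0.39 and G6pdx at -0.25 are filled in the Cdk8 knockout against the Cdk19 knockout.

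Between the knockouts, Srxn1 and G6pdx had the smallest adjusted p of the 10, and both were lower in the Cdk8 knockout. No gene of the 10 passed with all libraries, beside 0.105% of all genes (15 called; 1027 or 7.19% at an unadjusted p under 0.05, of which 1 was among the 10; 115 by DESeq2). In 4 of the 10, Keap1, Gclm, Srxn1 and G6pdx, every Cdk8 knockout library lay below every Cdk19 knockout library, beside 9.59% of all genes lower without overlap. Srxn1 averaged 40.3 ± 4.75 CPM in Cdk8 knockout libraries and 52.9 ± 1.43 CPM in Cdk19 knockout libraries (SD, n = 3 each), with a log2 fold change of -0.39 (SE 0.15, adjusted p = 0.603). G6pdx averaged 201 ± 15.7 CPM in Cdk8 knockout libraries and 239 ± 15.3 CPM in Cdk19 knockout libraries, with a log2 fold change of -0.25 (SE 0.12, adjusted p = 0.715). These libraries were the same in the fit without the pair that stood apart, where the estimates were again -0.39 and -0.25 but their errors smaller, and both passed (Srxn1 SE 0.08, adjusted p = 0.00533; G6pdx SE 0.06, adjusted p = 0.0255), beside 5.32% of all genes. Gsr and Txnrd1 were resolved to within intervals of -0.10 to 0.21 (Gsr) and -0.16 to 0.20 (Txnrd1).

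The wider pathway was read from 8 lists of 127 genes by role, of which 114 were tested. In RasG12V against untransformed cells 9 of the 114 rose and 21 fell, with a median log2 fold change of -0.01 beside -4.0e-04 over all genes. Counted in either direction, the 30 called of 114 are near the share of all genes called in this comparison, 23.4%. By direction they differ: 21 list genes fell and 9 rose, while 11.5% of all genes fell and 11.9% rose. This difference in direction was not tested, and the lists were chosen with earlier results of these data known. Without the pair of libraries 20 rose and 41 fell, beside 40% of all genes called (2754 rose and 3045 fell of 14493). Counts of single lists stand beside the same shares. Of the enzymes that use or export glutathione, 9 of 29 fell, 2 rose and 18 did not pass, with a median of -0.25. Gsto1, an omega-class glutathione transferase, was 2.36-fold lower with 502, 391 and 592 CPM in RasG12V, against 1138, 1295 and 1077 CPM in untransformed libraries (adjusted p = 1.2e-04). Abcc5, an exporter of organic anions, was 2.03-fold lower (230.2 ± 28.7 CPM in RasG12V and 466 ± 54.9 CPM in untransformed cells, SD, n = 3 each, adjusted p = 5.1e-05). Against this direction, Gpx8, a peroxidase of the endoplasmic reticulum, was 3.29-fold higher (23.0 ± 6.04 CPM in RasG12V and 6.96 ± 2.26 CPM in untransformed cells, adjusted p = 1.6e-04). Related glutathione transferases can share reads, and only reads with a single place in the genome entered the counts, so the values of this family are uncertain.

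Of 15 tested genes for quinone and carbonyl detoxification 4 fell, 2 rose and 9 did not pass (median -0.22). Ephx1, the microsomal epoxide hydrolase, was 3.62-fold lower with 54.6, 51.9 and 165 CPM in RasG12V, against 331, 289 and 364 CPM in untransformed libraries (adjusted p = 0.00235), and Cbr1, a carbonyl reductase, was 2.03-fold lower (adjusted p = 0.00115). Akr1b8, an aldo-keto reductase, was 1.54-fold higher with 144, 139.8 and 157 CPM in RasG12V, against 96.3, 97.3 and 92.3 CPM in untransformed libraries (adjusted p = 1.4e-04). In NADPH supply 2 of 11 fell and 0 rose (median -0.16): Me1, malic enzyme 1, was 1.73-fold lower (adjusted p = 2.6e-05), and H6pd, the G6pdx counterpart of the endoplasmic reticulum, 2.23-fold lower (adjusted p = 0.00115). In heme and iron handling 2 of 11 fell and 0 rose (median -0.07): Fech, which inserts iron into heme, was 1.40-fold lower (adjusted p = 7.3e-04), and Slc40a1, the iron exporter ferroportin, 1.88-fold lower (adjusted p = 0.00448).

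The regulators and partners of NRF2 held 3 genes that rose and 1 that fell of 16 (median 0.01). Maff, a small MAF partner, was 1.28-fold higher with 54.3, 53.6 and 50.2 CPM in RasG12V, against 44.9, 40.2 and 38.6 CPM in untransformed libraries (adjusted p = 0.00399). Fbxw11, a subunit of another ligase that targets NRF2, was 1.17-fold higher (adjusted p = 0.0419), and Rbx1, the ring protein of the CUL3 ligase, 1.22-fold lower (adjusted p = 0.0256). The remaining rise, Mafg, named after its values were seen, was close to the threshold (edgeR adjusted p = 0.0495). It had 95.8, 105 and 148 CPM in RasG12V, against 88.0, 79.9 and 96.8 CPM in untransformed libraries, so the groups overlapped. The thioredoxin and peroxiredoxin list held 1 rise and 1 fall of 16 (median 0.15): Txnrd3, a thioredoxin reductase, was 1.28-fold higher (adjusted p = 0.0157), and Sesn3, a sestrin, 1.66-fold lower (adjusted p = 0.0273). Of 7 superoxide and peroxide enzymes 1 fell and 0 rose (median -0.12): Cat, catalase, was 1.44-fold lower with 123, 126 and 203 CPM in RasG12V, against 217, 209.5 and 226 CPM in untransformed libraries (adjusted p = 0.0297).

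Of 9 tested genes for glutathione synthesis and cystine import 1 rose and 1 fell. Ggct, which acts in glutathione turnover, was 2.05-fold higher (12.8 ± 1.03 CPM in RasG12V and 6.23 ± 0.934 CPM in untransformed cells, SD, n = 3 each, adjusted p = 1.0e-04), and Slc3a2, the partner chain of the cystine transporter, was 1.47-fold lower (adjusted p = 0.0119), with libraries of the groups that overlapped. The median of this list was 0.67 with all libraries and -0.16 without the pair that stood apart. Chosen after its values were seen, Slc7a11, the cystine transporter itself, had 18.9, 20.3 and 124 CPM in RasG12V, against 20.7, 22.6 and 27.0 CPM in untransformed libraries, so that replicate 3 alone carried its mean. Gsta4, a transferase for lipid aldehydes, also named after its values were seen, had 113, 103 and 503 CPM in RasG12V, against 1233, 1196 and 586 CPM in untransformed libraries. Chac1, which degrades glutathione and was chosen in the same way, had 6.20, 5.36 and 29.1 CPM in RasG12V, against 11.2, 10.1 and 9.84 CPM in untransformed libraries. In each of these genes RasG12V replicate 3 was the highest of its group, which follows in part from how they were chosen. RasG12V replicate 3 was also the highest of its group for 9 of the 10 genes, all but Txnrd1. The share of all genes in which it was highest was not counted, so this is not a result about the 10. Whether the culture of that library differed was not tested.

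**Figure D4:**
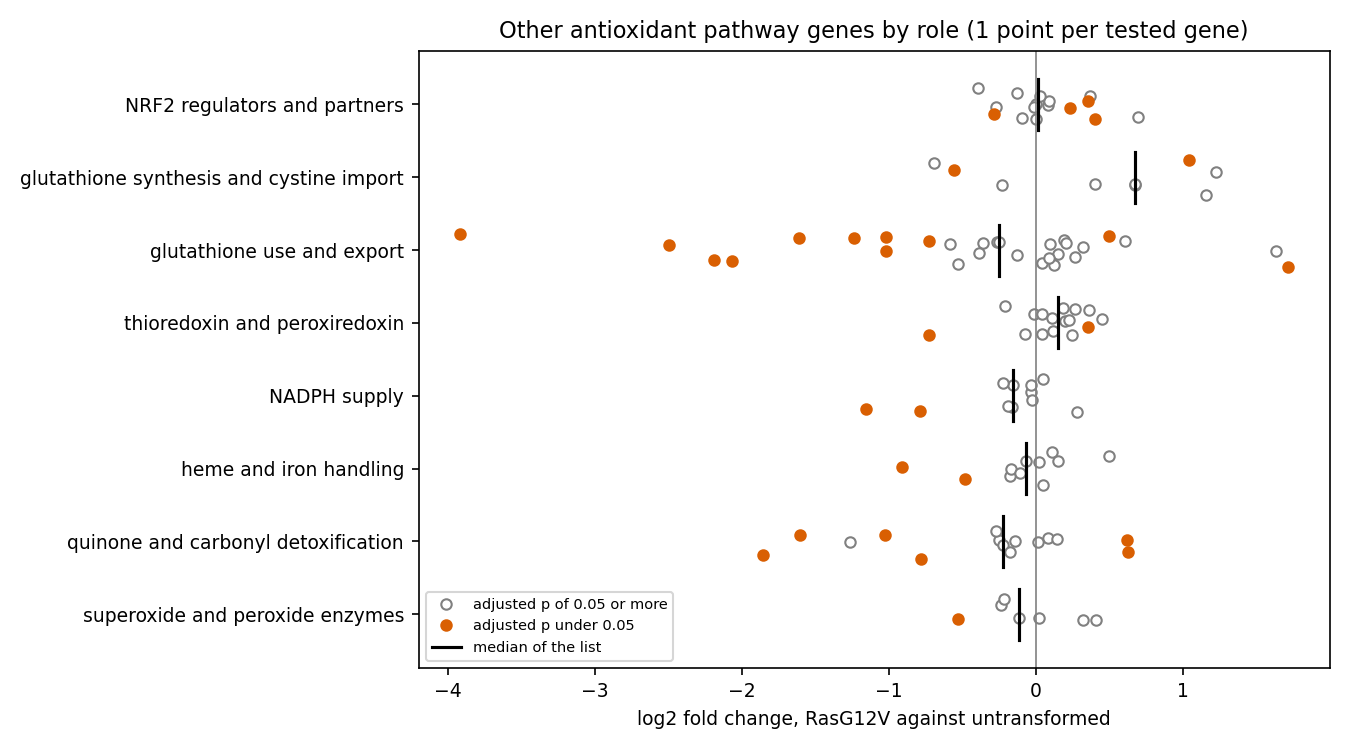
Log2 fold changes in RasG12V against untransformed cells of the 114 tested genes in 8 pathway lists, 1 point per gene and 1 row per list, with filled points for an adjusted p under 0.05 and a black line at each list's median. Filled points left of 0 number 9 of 29 in glutathione use and export and 4 of 15 in quinone and carbonyl detoxification, and the median of the thioredoxin list lies at 0.15.

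In the Cdk8 knockout against untransformed cells 14 of the 114 list genes rose and 24 fell, and in the Cdk19 knockout 13 rose and 23 fell, with the same untransformed libraries as in the comparison of RasG12V. Of all genes, 24.4% were called in the Cdk8 knockout (12.3% rose and 12.2% fell) and 25.3% in the Cdk19 knockout (12.4% rose and 12.9% fell). Gpx8 rose by 1.88 in the Cdk8 knockout (adjusted p = 8.2e-05) and by 2.24 in the Cdk19 knockout (adjusted p = 2.1e-05), Akr1b8 by 0.60 in the Cdk8 line (adjusted p = 1.9e-04) and 0.70 in the Cdk19 line (adjusted p = 5.8e-05), and Maff by 0.45 in the Cdk8 line (adjusted p = 8.2e-04) and 0.35 in the Cdk19 line (adjusted p = 0.00375). Txn1, thioredoxin itself, averaged 542 CPM in Cdk8 knockout cells and 602 CPM in Cdk19 knockout cells, and rose by 0.32 in the Cdk8 line (adjusted p = 0.0316) and 0.47 in the Cdk19 line (adjusted p = 0.00360). Rpia, ribose-5-phosphate isomerase of the pentose phosphate pathway, rose by 0.38 in each (adjusted p = 0.0191 in the Cdk8 line and 0.0186 in the Cdk19 line). Genes that fell in either knockout included Ephx1, by 2.26 in the Cdk8 line (adjusted p = 6.6e-04) and 1.95 in the Cdk19 line (adjusted p = 0.00155), Gsto1, by 1.28 in the Cdk8 line (adjusted p = 1.0e-04) and 1.46 in the Cdk19 line (adjusted p = 3.4e-05), Me1, by 0.76 in the Cdk8 line (adjusted p = 3.3e-05) and 0.89 in the Cdk19 line (adjusted p = 1.1e-05), H6pd, by 1.31 in the Cdk8 line (adjusted p = 4.7e-04) and 1.19 in the Cdk19 line (adjusted p = 9.0e-04), and Slc40a1, by 0.97 in the Cdk8 line (adjusted p = 0.00276) and 0.99 in the Cdk19 line (adjusted p = 0.00235). Txn2, mitochondrial thioredoxin, rose by 0.28 in the Cdk8 line (adjusted p = 0.0113) and 0.30 in the Cdk19 line (adjusted p = 0.00771). In RasG12V against untransformed cells Txn1 (0.26, edgeR adjusted p = 0.0750), Rpia (0.28, 0.0781) and Txn2 (0.12, 0.262) had the same direction without passing. Abcc1, a glutathione conjugate exporter, rose in all 3 transformed groups, by 0.45 in the Cdk8 line (adjusted p = 0.00139), 0.72 in the Cdk19 line (adjusted p = 5.0e-05) and 0.49 in RasG12V (adjusted p = 8.3e-04).

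Within transformed cells 0 of the 114 list genes passed in the Cdk8 knockout against RasG12V, in the Cdk19 knockout against RasG12V or between the knockouts. Without the pair of libraries 1 rose and 0 fell in the Cdk8 knockout against RasG12V, 7 rose and 1 fell in the Cdk19 knockout against RasG12V, and 2 rose and 7 fell in the Cdk8 knockout against the Cdk19 knockout. The shares of all genes called in these fits were 1.59% for the Cdk8 knockout against RasG12V, 2.01% for the Cdk19 knockout against RasG12V and 5.32% between the knockouts. Named after its values were seen, Aldh3a1, an aldehyde dehydrogenase, had 1.49, 1.52 and 1.92 CPM in Cdk8 knockout libraries, 4.27, 3.32 and 3.58 CPM in Cdk19 knockout libraries and 1.09, 0.941 and 5.70 CPM in RasG12V. Without the pair its log2 fold change was 1.87 in the Cdk19 knockout against RasG12V (SE 0.22, adjusted p = 1.6e-04) and -1.18 in the Cdk8 knockout against the Cdk19 knockout (SE 0.17, adjusted p = 2.9e-04). With all libraries it was 0.49 in the Cdk19 knockout against RasG12V (SE 0.55, adjusted p = 0.870). Between the knockouts it was then -1.18 (SE 0.57, adjusted p = 0.724). Fth1, the ferritin heavy chain, likewise had 684, 776 and 675 CPM in Cdk8 knockout libraries, 842, 822 and 933 CPM in Cdk19 knockout libraries and 701, 630.0 and 917 CPM in RasG12V. The log2 fold change of Fth1 in the Cdk19 knockout against RasG12V was 0.39 without the pair (SE 0.08, adjusted p = 0.00958). With all libraries it was 0.21 (SE 0.12, adjusted p = 0.733).

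As a description of likeness, the protein-coding genes with the highest Pearson r of log2 CPM over the 12 libraries were listed for 4 of the 10. The points are not independent: libraries of a group share their cell line, and untransformed libraries lie apart from transformed ones on a first principal component with 60.2% of the variance. For Nfe2l2 they were Ech1 (r = 0.982), Cat (0.982) and Sqor (0.981), for Hmox1 Akr1b8 (0.973), Itgb7 (0.960) and Mt3 (0.957), for Srxn1 Iars2 (0.919), Nphp4 (0.895) and Mpv17l (0.884), and for Nqo1 Kdelc2 (0.873), Exoc6b (0.867) and Oxsm (0.864). Cat and Akr1b8 were also on the pathway lists. In these bulk samples fewer cells that express a gene and less RNA per cell cannot be told apart.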

How the data were processed

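RNA sequencing counts of 12 libraries were analysed, 3 in each of 4 groups assigned from the labels. Total RNA without its ribosomal part was made into TruSeq libraries, per the labels. The submitters' processing notes name FastQC, STAR 2.6.0a and the build GRCm38.p6. Which annotation release the counting used is not given in the sources used here. The deposited files hold, for each Ensembl gene, counts without strand and for either strand, and the reverse-strand counts were used because they were 24.7 to 28.9 times the forward-strand ones in every library. Reads outside genes or mapped to several places stayed out of library sizes, which held 65.2% to 67.0% of all reads. Symbols, coordinates and summed exon lengths came from GENCODE M21, which held 54079 of the 54146 gene identifiers.

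Counts were tested with edgeR 4.0.16 in R 4.3.3 (TMM factors, genes kept by filterByExpr, robust glmQLFit, glmQLFTest, Benjamini-Hochberg over 14283 genes, threshold 0.05), with all 12 libraries in a single fit and no block. The SE was taken from the log2 fold change and its F value, and 95% intervals are approximate. The fit was also run on simulated counts with known changes. No simulated library was set apart, so that run does not show how the fit handles such libraries. Alternatives were RLE size factors, no filter on low counts, DESeq2 1.42.0, the unstranded column, a replicate block, leaving out each library, and leaving out the pair that stood apart. Nnt, whose symbol has 2 overlapping identifiers, was left out of the lists. The 10 genes and the lists were chosen with earlier results of these data known. In each comparison and list the text names up to 3 genes by smallest adjusted p among those past the threshold, and for Nqo1, Hmox1, Srxn1 and Nfe2l2 the 3 genes most like them; other names are said to be chosen after their values were seen. Promoter windows are from RefSeq. Figures were drawn with matplotlib 3.10.9.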

Additional observations from a re-analysis of the deposited data

How the results depend on the processing

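For RasG12V against untransformed cells, leaving out single libraries gave 5 to 8 of the 10 genes called and 2359 to 4808 genes in all, against 6 and 3340 with all libraries; without the pair that stood apart 5799 genes passed, 3167 of them shared with the 3340. In the Cdk8 knockout against untransformed cells 5 to 8 of the 10 passed when a library was left out, and 6116 genes without the pair; in the Cdk19 knockout 6314 passed without the pair, and 5 to 7 of the 10 when a library was left out. For the Cdk8 knockout against RasG12V, with 0 genes called, the count was 16 with no filter on low counts, 30 in DESeq2, 1 with the replicate block, 231 without the pair and 0 to 3 without single libraries. For the Cdk19 knockout against RasG12V, with 2 called, it was 84, 66, 291 and 0 to 21 (no filter, DESeq2, pair left out, single libraries left out). For the Cdk8 knockout against the Cdk19 knockout, with 15 called, it was 108, 115, 771 and 0 to 133, and 2 of the 10 genes passed without the pair. The causes were not tested, beyond the smaller spread within groups that the pair's removal leaves by construction. No called gene of the 10 changed direction under any alternative. RLE size factors and the unstranded column changed no call among the 10.

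Replicate numbers gave no steady pairing of the libraries. Over 18 same-numbered pairs the correlation of deviations ran from -0.168 to 0.282, and 8 were over 0.1. Of 12 libraries, 6 correlated best with a library of their own number. A replicate block moved the share of all genes called in RasG12V against untransformed cells from 23.4% to 25.8%. Whether same-numbered libraries share a batch was not tested. With the replicate block Nfe2l2 passed in RasG12V against untransformed cells (edgeR adjusted p = 0.0474), and no other call among the 10 changed. Nqo1 had the fewest counts of the 10 genes, 6 to 41 per library, and its libraries also varied within groups; the parts of depth and of that spread in its error were not told apart.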
